A study of Sus scrofa with 2 samples.

Results

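A group of 233 nuclei that carried transcripts of mural cells was selected from pig renal cortex profiled by single-nucleus RNA sequencing. They made up 1.80% of the 12955 barcodes with 500 to 6000 detected genes. A nucleus was a member if it had at least 2 UMIs (unique molecular identifiers, tags that each mark 1 RNA molecule) of MYH11, ANO3 and ANO1 together and at least 1 UMI of ITGA8, NLGN1, GPC6 or KCNB2. Nuclei were left out at 15 or more UMIs per 10000 of 5 endothelial genes, 30 or more of LRP2 and CUBN, 20 or more of SLC12A1, or 8 or more of 3 intercalated cell genes. These counts chose the members, so the levels of the same genes below describe the choice. The label under which the nuclei were selected names mesangial, smooth muscle and juxtaglomerular cells.

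Mural cells surround or support the vessels of the kidney. Mesangial cells hold the capillary loops of the glomerulus together, contract, and lay down matrix. Vascular smooth muscle cells set the tone of the afferent and efferent arterioles through actin, smooth muscle myosin and the channels that control entry of calcium. Juxtaglomerular cells sit in the wall of the afferent arteriole, and that part of the label is not examined here.

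The study set cortex collected before perfusion (unperfused) against cortex collected when kidneys had been perfused outside the body for 120 min, at a pressure of 100 mmHg and a temperature of 37 °C (perfused), to ask how kidney cells respond to raised pressure. Nuclei were isolated from frozen tissue of slaughtered pigs whose kidneys had been flushed and kept cold, and 1 library of each condition was available. The sources do not say whether both pieces came from 1 animal, and time, temperature, perfusate and pressure cannot be told apart. With 1 library per condition no test was possible: ratios between libraries are given with exact 95% intervals that cover counting error only, and those libraries, not the conditions, are compared.

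The unperfused library held 34415254 UMIs in 7179 barcodes and the perfused library 35525592 UMIs in 6205 barcodes. There were 97 members among 7035 unperfused barcodes in range, or 1.38% (exact binomial interval 1.12 to 1.68%). There were 136 among 5920 perfused barcodes, or 2.30% (1.93 to 2.71%). The share was therefore higher in the perfused library by more than counting error, but the number of nuclei of a type that 1 piece of tissue yields was not replicated. Members held 317212 UMIs in the unperfused and 585875 UMIs in the perfused library, with medians of 2355 and 3126 UMIs per nucleus. The threshold divided nuclei of low counts: 14 unperfused and 25 perfused members had exactly 2 UMIs of the 3 genes, while 39 and 37 nuclei that met every other condition had exactly 1. The endothelial limit was close for 12 and 18 members with 10 or more UMIs per 10000 of the endothelial genes, while 4 and 10 nuclei with 15 to 20 were left out. The 2 libraries shared 14 barcode sequences, none of them among members.

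Clustering of the members by themselves gave 6 subclusters, of which 2 went against the label. A subcluster of 48 nuclei (13 unperfused, 35 perfused) met the markers of fibroblasts, with 7 of 11 of them raised. These included DCN, PDGFRA, C7 and COL1A2. Raised means over 2-fold above the other members on a CPM + 5 scale and present in at least 10% of the nuclei of the subcluster. Of 9 immune markers 7 were raised in it as well, including PTPRC, CD163, CD3E and CSF1R. Its leading genes were KCND3, GRIP1, SMOC2, KCNIP1 and KCND2. Another subcluster of 18 nuclei (12 unperfused, 6 perfused) carried 5 of 8 markers of the distal nephron and collecting duct, among them SCNN1G, SLC26A4 and AQP2, and was led by ESRRB, ATP6V0A4, UNC13C, ARNT2 and PAK5. Its nuclei had a median of 7382.5 UMIs, and a doublet caller marked 14 of the 18, against 3 of all other members. Key values are therefore given for all members and for the 167 members of the other 4 subclusters (72 unperfused, 95 perfused). The marker lists were written with earlier results of these data known, and the naming rule was completed after the subclusters had been seen.

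The members split first by which of the 3 genes had let them in. MYH11, the heavy chain of smooth muscle myosin, was present without ANO3 or ANO1 in 87 nuclei, while 104 had ANO3 or ANO1 without MYH11, and 42 had MYH11 together with one of them. ANO1 is a chloride channel opened by calcium, and ANO3 belongs to the same anoctamin family. NLGN1, a neuroligin best known as an adhesion molecule of synapses, was found in 88 members, of which 8 also had MYH11. Of the same 88 nuclei, 83 had ITGA8, the integrin chain that pairs with beta 1 to bind nephronectin, and 51 had GATA3, a transcription factor of the mesangial lineage. MYOCD, the cofactor of serum response factor that drives the smooth muscle program, was found in 59 members, of which 3 had NLGN1. The rule asks for a sum over MYH11, ANO3 and ANO1 and so fixes part of this division.

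**Figure D1:**
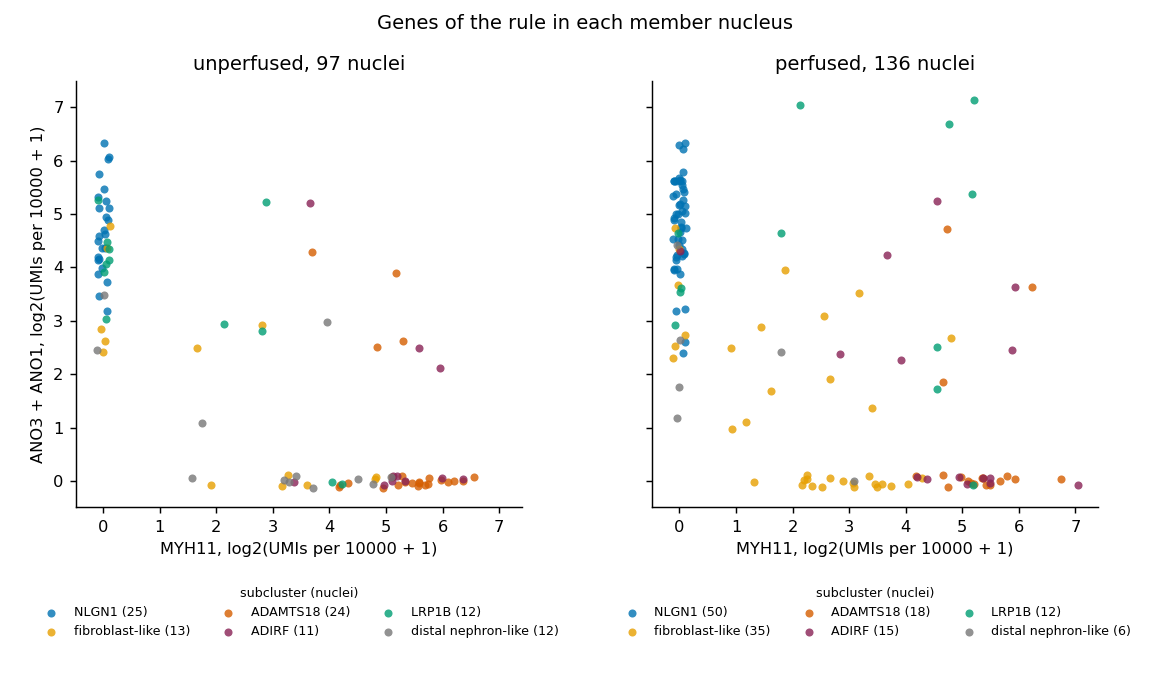
Each point is 1 member nucleus, placed by its UMIs of MYH11 per 10000 (x axis) and of ANO3 and ANO1 together (y axis), both as log2 of the value plus 1 with a small random offset so that points do not cover each other. Panels show the 97 unperfused and 136 perfused members and colours the subclusters; all 75 nuclei of the NLGN1 subcluster lie at 0 on the MYH11 axis, and most nuclei of the ADAMTS18 and ADIRF subclusters lie at 0 on the other.

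The largest subcluster held 75 nuclei (25 unperfused, 50 perfused) and is called the NLGN1 subcluster here after its leading gene. Its other leading genes included ZFHX4, CNTN1 and NPR3, the clearance receptor for natriuretic peptides. It had 7 of 12 mesangial markers raised, namely NLGN1, POSTN, PIEZO2, GATA3, ITGA8, TBX3 and ADAMTS5, but also 3 of 6 podocyte markers, WT1 and CLIC5 among them. The podocyte list had the highest mean log2 fold there (2.33), with 2 of its markers among the leading 10 genes against 1 mesangial marker. A name also required that list to have the most markers raised, and more mesangial markers were raised (7 against 3). The subcluster was therefore given no cell type name. Mesangial markers summed to 12332.8 CPM (UMIs scaled to 1000000 UMIs of the group) in its unperfused and 13129.1 CPM in its perfused nuclei. Of these UMIs, NLGN1 and ITGA8 held 242 and 256 of 758 unperfused and 920 and 738 of 2390 perfused ones. Both genes are in the rule, so most of the sum describes the choice. NLGN1 itself was found in 25 of 25 and 47 of 50 of these nuclei, against 3.55% and 3.87% of proximal tubule nuclei, which should lack it and were deeper (medians of 5596 and 6982.5 UMIs against 2251 and 2513). MYH11, MYOCD, CNN1, KCNB2 and KCNMA1 had no UMI in any of the 75. A count of 0 allows a level of up to 48.8 CPM in its unperfused nuclei and 16.5 CPM in its perfused nuclei.

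The NLGN1 subcluster held transcripts of several podocyte markers. WT1, a transcription factor of podocytes and of kidney progenitors, was spread over 15 of 25 unperfused and 27 of 50 perfused nuclei, with 29 and 80 UMIs and a log2 ratio of -0.10 (-0.73 to 0.56). It was found in 2.38% and 1.07% of proximal tubule nuclei, which were deeper. PTPRO, a receptor phosphatase of podocyte foot processes, had none and 32 UMIs, in 7 perfused nuclei, and was found in 2.69% and 1.74% of proximal tubule nuclei. COL4A3, a chain of the mature glomerular basement membrane, had none and 62 UMIs, 48 of them in 1 nucleus, and was found in 62.8% and 59.9% of proximal tubule nuclei. The part of podocyte RNA in this was not tested.

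Smooth muscle markers were raised in 2 subclusters with 68 nuclei in all (35 unperfused, 33 perfused), called smooth muscle-like. The ADAMTS18 subcluster had 42 nuclei (24 and 18) with 12 of 16 smooth muscle markers raised, and its leading genes included ADAMTS18, MYOCD, GLDN and SLC22A3. The ADIRF subcluster had 26 nuclei (11 and 15) with 10 of 16 raised, led by ADIRF, with ITIH4, TAGLN and CNN1 also among its leading genes. MYH11 was found in 35 of 35 unperfused and 32 of 33 perfused smooth muscle-like nuclei, against 1.91% and 1.96% of proximal tubule nuclei. Smooth muscle markers summed to 15497 and 19861.9 CPM in the ADAMTS18 subcluster and to 20149 and 15312.8 CPM in the ADIRF subcluster (unperfused and perfused). The subclusters differed in the kind of RNA they held as well. Ribosomal protein transcripts made up 0.404% and 0.724% of the UMIs of the ADAMTS18 subcluster against 2.05% and 4.24% in the ADIRF subcluster, and mitochondrial transcripts 0.126% and 0.323% against 0.454% and 2.81%. The ADIRF subcluster also had 3 pericyte and 3 fibroblast markers raised.

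The last subcluster, of 24 nuclei (12 and 12), is called the LRP1B subcluster after its leading gene, and ABCC8, KCNQ5 and RIMS1 were also among its leading genes. Its nuclei lay between the others: 11 had ANO3 or ANO1 without MYH11, 10 had both kinds and 3 had MYH11 only. ITGA8 stood at 1901 CPM in its unperfused nuclei and at 1934 CPM in its perfused nuclei. Of 12 mesangial markers 3 were raised in it, namely PIP5K1B, PDGFRB and PIEZO2. Mesangial markers summed to 5774 and 4808 CPM there and smooth muscle markers to 2887 and 5453 CPM (unperfused and perfused). Both lists hold genes of the rule. AGTR1, the receptor through which angiotensin II constricts vessels, had 7 and 47 UMIs, 32 of the latter in 1 nucleus.

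**Figure D2:**
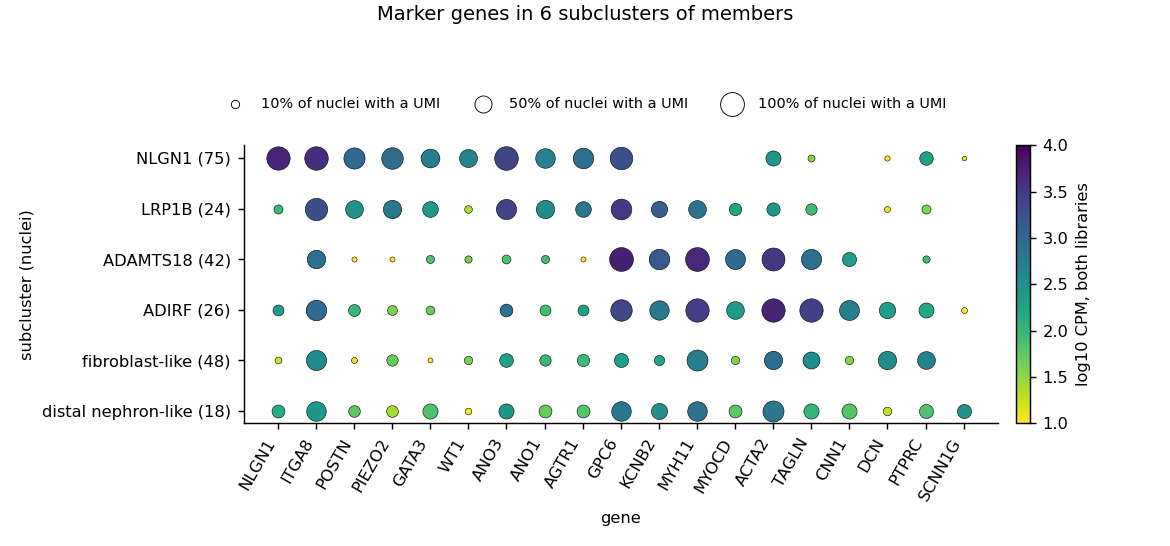
Marker genes (x axis) in the 6 subclusters of members (y axis, with their number of nuclei), both libraries together. Dot area grows with the share of nuclei that had a UMI and colour gives log10 CPM; no dot means no UMI. NLGN1, PIEZO2 and GATA3 peak in the NLGN1 subcluster and MYH11, MYOCD and ACTA2 in the ADAMTS18 and ADIRF subclusters, while ITGA8 and ANO3 are shared by the NLGN1 and LRP1B subclusters.

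Next, the members were set against all 12722 other nuclei in range, as a description of what the selection enriched. Of 7449 genes with at least 20 UMIs in members, 16.9% were over 2-fold higher in members on a CPM + 5 scale. The 15 genes with the largest folds included MYH11 (log2 fold 6.15), ANO3 (5.79), GPC6 (5.07), NLGN1 (4.97), ITGA8 (4.91), CTNNA3 (4.85), ANO1 (4.74), LRRTM3 (4.68), ADAMTSL1 (4.52), FABP4 (4.50), MYOCD (4.45), TAGLN (4.44), IRAG1 (4.43) and FRMD4A (4.37). Of the 15, 6 were in the rule. The others include CTNNA3 (an alpha catenin of cell junctions), TAGLN (the actin-binding protein transgelin) and IRAG1, the substrate through which the cyclic GMP-dependent kinase holds back calcium release.

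The 2 libraries were then compared within the members. Of the 7449 genes, 670 (8.99%) were at least 2-fold higher and 469 (6.3%) at least 2-fold lower in the perfused library, and the median log2 ratio was 0.02 (quartiles -0.36 and 0.44). In the 167 members of the 4 subclusters 8.72% of 5149 genes were at least 2-fold higher and 6.21% at least 2-fold lower. The broadest pattern was in mitochondrially encoded genes, of which 9 of 10 compared were at least 2-fold higher with a median log2 ratio of 1.88. Cytosolic ribosomal protein genes followed with 40 of 64 higher, none lower and a median of 1.17. In the 4 subclusters 16 of 63 were higher, with a median of 0.76. Endothelial, fibroblast and proximal tubule nuclei were those outside the members with at least 3 UMIs and 15 per 10000 of the 5 endothelial genes, at least 2 UMIs of 4 fibroblast genes, or at least 30 UMIs per 10000 of LRP2 and CUBN. In endothelial nuclei the same lists had medians of 1.63 and 0.89, and in fibroblast nuclei 1.99 and 1.32. In proximal tubule nuclei they had medians of 0.89 and 0.04, and none of 67 ribosomal protein genes was at least 2-fold higher there. Among members, the LRP1B subcluster held similar shares in both libraries (ribosomal 0.891% and 0.842%, mitochondrial 0.306% and 0.278%). Mitochondrial transcripts made up 0.238% of the UMIs of unperfused and 0.998% of those of perfused members, and ribosomal protein transcripts 0.815% and 1.77%. The part of nucleus quality in the other ratios was not tested.

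**Figure D3:**
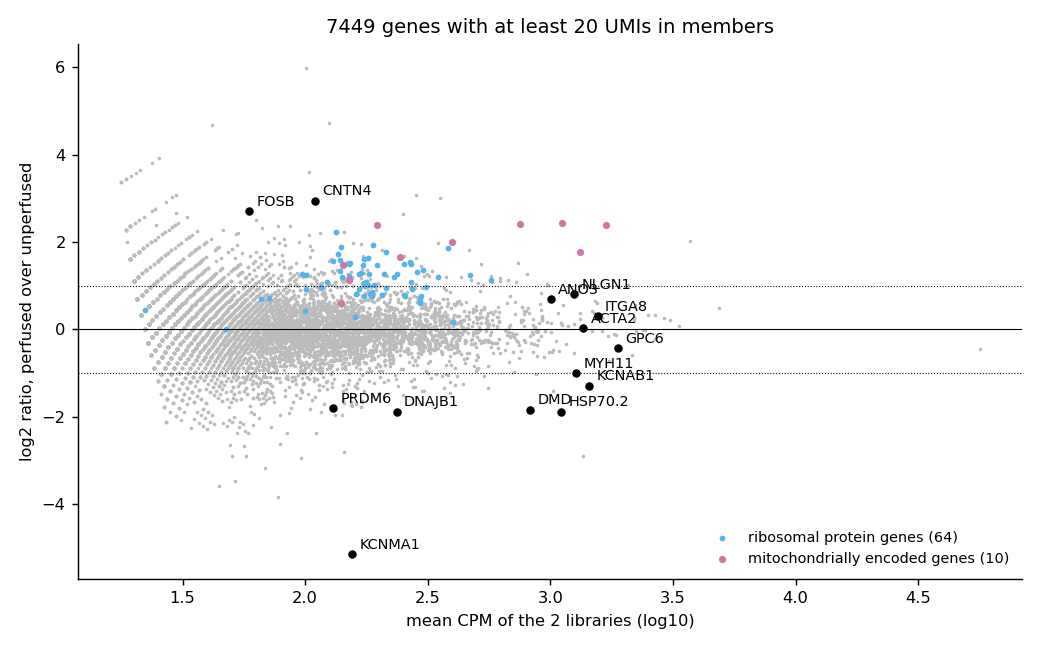
All 7449 genes with at least 20 UMIs in members, by their mean CPM in the 2 libraries (x axis, log10) and log2 ratio of perfused over unperfused (y axis); dotted lines mark 2-fold. KCNMA1 lies farthest below 0 at -5.15, 9 of 10 mitochondrially encoded genes lie above the upper line, and ACTA2, ITGA8, NLGN1 and ANO3 lie within 2-fold.

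Largest ratios were ranked among genes that have a symbol, with 50 or more UMIs in 1 of the libraries, an interval without 0 and no nucleus holding over 25% of their UMIs. The 12 largest higher ratios under these limits were those of CNTN4, FOSB, RPL36A-HNRNPH2, COX2, ATP6, ND1, COX3, ITGA4, RPLP2, PRELP, REL and PRDX2, with log2 ratios between 2.17 and 2.95. COX2, ATP6, ND1 and COX3 are mitochondrial, and RPL36A-HNRNPH2 is a locus that reads through 2 neighbouring genes, so its UMIs are uncertain. The 12 largest lower ratios under the same limits were those of KCNMA1, C11orf1, NOC3L, CCDC148, DNAJB1, TMEM117, HSP70.2, DMD, RUFY1, PRDM6, CDH13 and VEPH1, between -5.15 and -1.72. Among these 12, the next after KCNMA1 was C11orf1 at -2.38. Values with equal weights average the 5 subclusters that had at least 10 nuclei in each library and leave out the distal nephron-like one, which had 6 perfused nuclei. CCDC148 was then at -0.81, PRDM6 at -0.82 and VEPH1 at -0.66, and PRDM6 was at -0.47 with members thinned to 1000 UMIs.

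MYH11 stood at 1699 CPM (539 UMIs) in unperfused and 845 CPM (495 UMIs) in perfused members, a log2 ratio of -1.01 (-1.19 to -0.83). In the ADAMTS18 subcluster the ratio was -0.19 (-0.47 to 0.08) and in the ADIRF subcluster -0.76 (-1.10 to -0.42), while in the LRP1B subcluster it was 1.36 (0.41 to 2.45). In the distal nephron-like subcluster MYH11 had 110 and 8 UMIs, a ratio of -3.13 (-4.38 to -2.10). With equal weights the ratio of MYH11 was -0.28. Those weights leave that subcluster out and also count each remaining subcluster alike, so the move cannot be put down to leaving it out.

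NLGN1 stood at 911 CPM (809 to 1022) in unperfused and 1589 CPM (1489 to 1695) in perfused members. Its log2 ratio was 0.80 over all members, but 0.36 (0.15 to 0.57) within the NLGN1 subcluster and 0.09 with equal weights. ANO3 had 243 and 726 UMIs (766 and 1239 CPM) and a ratio of 0.69 (0.48 to 0.91). Within the NLGN1 subcluster it was -0.02 (-0.29 to 0.25), and in the LRP1B subcluster 1.48 (0.94 to 2.06), with 59 of 176 perfused UMIs in 1 nucleus. ITGA8 had 443 and 1006 UMIs and a ratio of 0.30 (0.14 to 0.46), which was -0.04 (-0.25 to 0.17) in the NLGN1 subcluster and -0.11 with equal weights. In the NLGN1 subcluster the levels of ANO3, ITGA8, ANO1 (-0.19), POSTN (-0.15) and GPC6 (0.08) all differed between libraries by less than their counting intervals.

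KCNB2, a voltage-gated potassium channel subunit, had no UMI in the NLGN1 subcluster. In the ADAMTS18 subcluster it had 42 UMIs in 15 of 24 unperfused and 103 UMIs in 16 of 18 perfused nuclei, a log2 ratio of 1.38 (0.85 to 1.93). In the ADIRF subcluster it had 26 and 37 UMIs and a ratio of -0.17 (-0.93 to 0.61). Over all members the ratio was -0.27 (-0.56 to 0.03). GPC6, a glypican that binds growth factors at the cell surface, had ratios of 0.21 (-0.05 to 0.46) in the ADAMTS18 and -1.36 (-1.75 to -0.98) in the ADIRF subcluster. The 2 smooth muscle-like subclusters thus gave different values for both genes, and the difference was not tested.

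**Figure D4:**
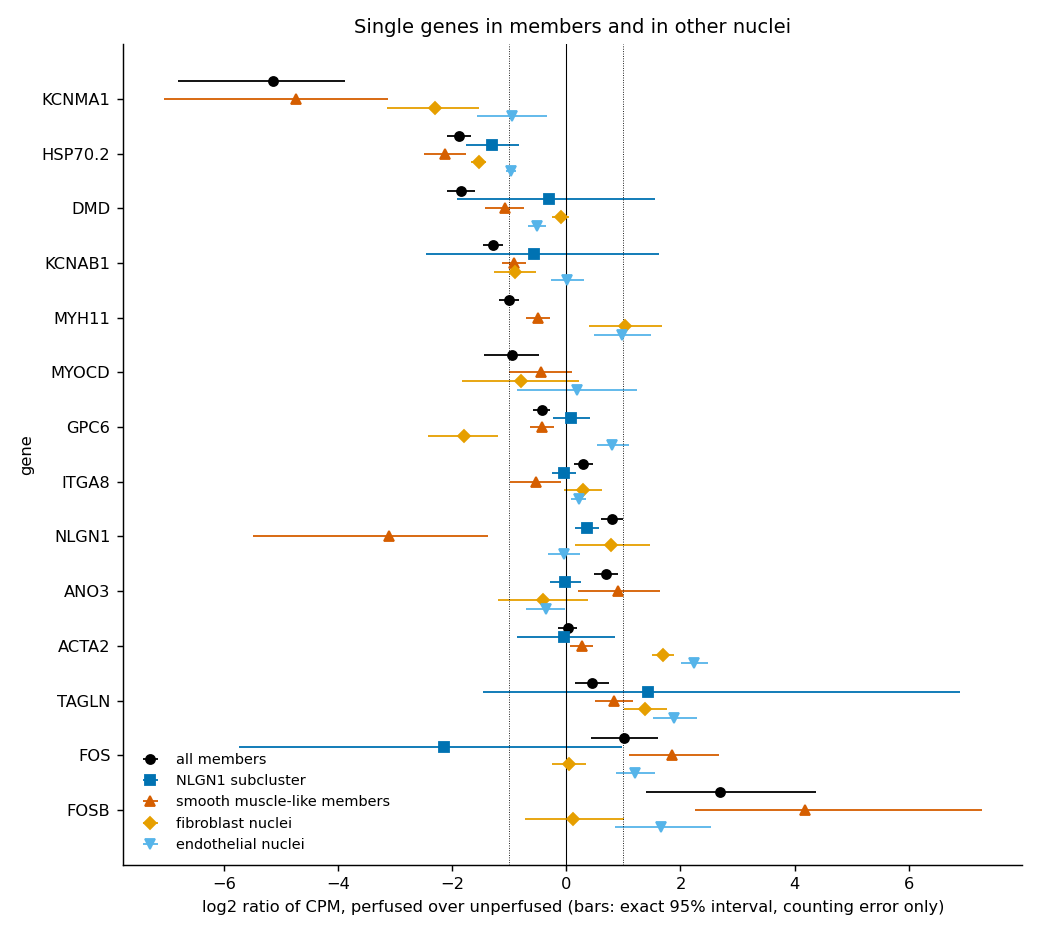
Log2 ratio of CPM, perfused over unperfused (x axis), of single genes (y axis) in all members, the NLGN1 subcluster, smooth muscle-like members, and fibroblast and endothelial nuclei that are not members. Bars are exact 95% intervals for counting error; genes without an interval in a group (too few UMIs) have no point there. KCNMA1 and HSP70.2 lie below 0 in every group where they have a point, whereas MYH11 lies below 0 in members and above 0 in the other 2 cell types. MYH11 belongs to the selection rule, which limits the level left in nuclei outside the members.

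Under the limits given above, the ratio largest in size was that of a potassium channel gene, KCNMA1. KCNMA1, the pore of the large-conductance potassium channel that calcium opens and that relaxes smooth muscle, had 96 UMIs in 21 of 97 unperfused members (303 CPM) and 5 UMIs in 4 of 136 perfused members (8.53 CPM). The log2 ratio was -5.15 (-6.80 to -3.88), and no unperfused nucleus held more than 17 of the 96 UMIs. In the ADAMTS18 subcluster 42 UMIs in 9 of 24 nuclei stood against 2 UMIs in 1 of 18 nuclei, and in the ADIRF subcluster 23 UMIs in 6 of 11 against 1 UMI in 1 of 15. The distal nephron-like subcluster had 28 and 2 UMIs, and the NLGN1 and LRP1B subclusters had none in either library. Of the 25 members with KCNMA1, 23 also had MYH11. In the 4 subclusters the ratio was -5.39 (-7.70 to -3.78).

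The ratio lay closer to 0 in other nuclei of the same libraries. KCNMA1 had 54 and 19 UMIs in fibroblast nuclei, a log2 ratio of -2.31 (-3.14 to -1.53), 68 and 37 in endothelial nuclei, a ratio of -0.95 (-1.56 to -0.35), and 528 and 453 in proximal tubule nuclei, a ratio of -0.10 (-0.29 to 0.08). It was found in 42.9% of unperfused and 6.06% of perfused smooth muscle-like nuclei, against 6.63% and 6.11% of proximal tubule nuclei, so the perfused share did not exceed that of proximal tubule nuclei. The counting intervals of members and fibroblast nuclei did not overlap, and the difference itself was not tested.

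Of 15 potassium channel genes in the files, 8 could be compared in members; 3 were at least 2-fold lower and none higher, where 8.99% of all genes were higher and 6.3% lower, and the median log2 ratio was -0.37 beside 0.02 over all genes. KCNMB1, the smooth muscle beta subunit of the same channel, had 13 and 11 UMIs, a ratio of -1.13, but 4 and 9 UMIs in the 4 subclusters, a ratio of 0.22 (-1.62 to 2.37). KCNAB1, a beta subunit of voltage-gated channels, had 647 and 489 UMIs and a ratio of -1.29 (-1.46 to -1.12), with -0.46 (-0.73 to -0.19) in the ADAMTS18 and -1.41 (-1.77 to -1.05) in the ADIRF subcluster. It was -0.90 (-1.27 to -0.54) in fibroblast and 0.02 (-0.27 to 0.30) in endothelial nuclei. KCND3 had a ratio of 0.87, but it was a leading gene of the fibroblast-like subcluster. Calcium and chloride channels gave a median of 0.11 over 23 genes, with none at least 2-fold higher and 1 lower. PIEZO2, a cation channel opened by membrane tension, had 76 and 214 UMIs and a ratio of 0.61 in members but 0.15 (-0.31 to 0.64) in the NLGN1 subcluster.

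The contractile apparatus did not move as 1 group. Of 21 genes compared, 3 were at least 2-fold higher (MYL9, DES and TLN1) and 2 lower (MYH11 and SORBS2), beside 8.99% and 6.3% of all genes, and the median log2 ratio was -0.04 beside 0.02 over all genes. ACTA2, smooth muscle actin, stood at 1352 CPM (429 UMIs) and 1372 CPM (804 UMIs), a ratio of 0.02 (-0.15 to 0.19), while in fibroblast and endothelial nuclei it was 1.69 (1.49 to 1.89) and 2.24 (2.01 to 2.48). Within the ADAMTS18 subcluster ACTA2 had 124 and 196 UMIs, a ratio of 0.75 (0.41 to 1.08), and in the ADIRF subcluster 218 and 311 UMIs, a ratio of -0.17 (-0.42 to 0.09). In the 4 subclusters together it was -0.29 (-0.48 to -0.09). In the fibroblast-like members ACTA2 had 10 and 188 UMIs, a ratio of 2.18 (1.27 to 3.27).

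TAGLN had 134 and 337 UMIs and a log2 ratio of 0.45 (0.15 to 0.75), with 1.47 (0.75 to 2.23) in the ADAMTS18 and 0.38 (0.01 to 0.76) in the ADIRF subcluster. MYL9, the regulatory light chain whose phosphorylation starts contraction, had 28 and 124 UMIs and a ratio of 1.26 (0.66 to 1.91). DES, the intermediate filament desmin, had 8 and 76 UMIs, of which 2 and 48 were in the NLGN1 subcluster and 23 of the latter in 1 nucleus. LPP, a protein of actin attachment sites, had a ratio of -0.59, and in smooth muscle-like nuclei LPP was -0.96 (-1.16 to -0.76). In the NLGN1 subcluster 6 of 17 contractile genes were at least 2-fold higher and none lower, where 11.9% of 2754 genes were higher and 5.92% lower. In the same nuclei podocyte markers summed to 716 and 1659 CPM, and 18 of 58 ribosomal protein and 8 of 10 mitochondrially encoded genes were at least 2-fold higher. Their part in the contractile genes was not tested. The median log2 ratio of the contractile list was 0.43 in the NLGN1 subcluster. Outside the members it was 0.52 in fibroblast, 0.79 in endothelial and 0.19 in proximal tubule nuclei. In smooth muscle-like nuclei 1 of 20 was higher and 1 lower, where 14.4% of 2215 genes were higher and 9.89% lower.

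Of 15 smooth muscle markers compared in members, 2 were at least 2-fold higher and 3 lower (8.99% and 6.3% of all genes), with a median log2 ratio of -0.15. In smooth muscle-like nuclei none of 14 was at least 2-fold higher and 1 was lower (14.4% and 9.89% of all genes), with a median of -0.39, and the list summed to 17550.1 and 17254.5 CPM. For MYOCD, DMD and ADRA1A the value was lower in the ADIRF than in the ADAMTS18 subcluster, a difference that was not tested. MYOCD had 77 and 73 UMIs and a log2 ratio of -0.96 (-1.44 to -0.48), with 0.18 (-0.44 to 0.80) in the ADAMTS18 and -1.77 (-3.19 to -0.48) in the ADIRF subcluster. DMD, which encodes dystrophin and links actin to the matrix, had 411 and 212 UMIs and a ratio of -1.84 (-2.09 to -1.60), with -0.21 (-0.62 to 0.19) and -2.61 (-3.36 to -1.92) in the same 2 subclusters. The ratio of DMD was -1.02 with equal weights, which leave out the distal nephron-like subcluster and also count each remaining subcluster alike. The parts of these 2 changes were not separated. ADRA1A, the adrenergic receptor through which noradrenaline constricts vessels, had 41 and 49 UMIs in the ADAMTS18 subcluster, a ratio of 0.34 (-0.29 to 0.98), and 34 and 6 in the ADIRF subcluster, a ratio of -3.18 (-4.73 to -1.91). The ADIRF subcluster had the higher ribosomal and mitochondrial shares given above, and more so in its perfused nuclei, and their part in these ratios was not tested.

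Other genes lay below 0 in both smooth muscle-like subclusters. NTRK3, a neurotrophin receptor, had 36 and 18 UMIs in the ADAMTS18 and 25 and 9 in the ADIRF subcluster, ratios of -0.91 (-1.82 to -0.06) and -2.15 (-3.44 to -1.01). CCN1, a matricellular protein that YAP and serum response factor induce, had ratios of -2.50 (-4.49 to -0.96) and -1.40 (-2.36 to -0.48), and FHL1, a LIM protein of muscle, -1.44 (-2.81 to -0.23) and -1.60 (-2.95 to -0.35). ZFPM2, a partner of GATA factors, had -2.91 (-4.88 to -1.42) and -1.68 (-2.87 to -0.57). PRDM6, a transcriptional repressor of smooth muscle, had 47 and 23 UMIs in smooth muscle-like nuclei together, a ratio of -1.33 (-2.12 to -0.59), but its interval in the ADAMTS18 subcluster alone held 0. Among regulators of serum response factor and YAP, 1 of 15 was at least 2-fold lower in members (FHL1, -1.40), none was higher, and the median was -0.13. MRTF-SRF targets had 3 of 28 higher, 2 lower and a median of 0.05 where 8.99% of all genes were higher and 6.3% lower. In the 4 subclusters none of 24 was higher and 3 were lower (8.72% and 6.21% of all genes), with a median of -0.02. Of 16 such targets in the NLGN1 subcluster 5 were higher and none lower (11.9% and 5.92% of all genes), with a median of 0.44. In the same nuclei podocyte markers summed to 716 and 1659 CPM. There, 18 of 58 ribosomal protein and 8 of 10 mitochondrially encoded genes were at least 2-fold higher. Their part in these targets was not tested. Outside the members the same targets had medians of 0.62 in fibroblast, 0.49 in endothelial and 0.22 in proximal tubule nuclei. A median above 0 was therefore not particular to the NLGN1 subcluster. Of YAP targets 1 of 9 was lower (CCN1, -1.55), with a median of -0.05. CCN2, a related target, had a ratio of -0.14.

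Among receptors for vasoactive agents 3 of 12 were at least 2-fold higher and 2 lower, where 8.99% of all genes were higher and 6.3% lower, with a median log2 ratio of 0.14. EDNRB, an endothelin receptor, had 23 and 108 UMIs (1.35), ADORA1, the adenosine receptor that constricts the afferent arteriole, 9 and 42 (1.34), and PTGER4, a prostaglandin E2 receptor, 9 and 36 (1.11). ADRA1A (-1.13) was lower. PTGER3 had a ratio of -1.27, but in the 4 subclusters it had 5 and 13 UMIs, a ratio of 0.43 (-1.15 to 2.27), and 24 of its unperfused UMIs were in the fibroblast-like subcluster, 17 of them in 1 nucleus. Of the UMIs of EDNRB, 12 of the unperfused and 87 of the perfused were in the fibroblast-like subcluster, and in the 4 subclusters it had 7 and 15, a ratio of 0.15 (-1.23 to 1.68). In the 4 subclusters 1 of 10 of these receptors was higher and 2 lower, beside 8.72% and 6.21% of all genes. AGTR1 had 83 and 227 UMIs and a ratio of 0.57 in members, but -0.22 (-0.67 to 0.24) in the NLGN1 subcluster, where it was found in 23 of 25 and 32 of 50 nuclei. EDNRA, the endothelin receptor that contracts mesangial and smooth muscle cells, had 61 and 78 UMIs (-0.53). No UMI of ADRB1, a beta adrenergic receptor, was found in any member.

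Cyclic nucleotide signalling relaxes mural cells through nitric oxide, natriuretic peptides and cyclic AMP. Of 25 such genes 3 were at least 2-fold higher and none lower (8.99% and 6.3% of all genes), and the median log2 ratio was 0.13. PRKG1, the cyclic GMP-dependent kinase, stood at 4048 and 5694 CPM, with a ratio of 0.49 in members and 0.03 in smooth muscle-like nuclei. GUCY1A2, a subunit of the nitric oxide receptor, had 83 and 353 UMIs (1.20), PDE7B 19 and 84 (1.26) and PDE4B 11 and 61 (1.59), both phosphodiesterases of cyclic AMP. In the 4 subclusters the ratio of GUCY1A2 was 0.31 (-0.20 to 0.84), and 1 of 23 such genes was higher and 2 lower (8.72% and 6.21% of all genes). PDE3A, which breaks down cyclic AMP, stood at 2380 and 2376 CPM.

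FOSB, FOS and JUN, immediate early genes that cells transcribe within minutes of a stimulus, had more UMIs in perfused than in unperfused nuclei of the ADAMTS18 subcluster. FOSB, a subunit of the AP-1 factor, had 5 UMIs in 4 unperfused and 60 UMIs in 22 perfused members, a log2 ratio of 2.70 (1.40 to 4.37). In the ADAMTS18 subcluster it had 2 UMIs in 2 of 24 nuclei and 35 UMIs in 12 of 18 nuclei, and in the ADIRF subcluster none and 10 UMIs. In the NLGN1 subcluster 1 UMI was found in 75 nuclei, and in proximal tubule nuclei the share with a UMI was 1.17% and 1.51%.

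FOS had 10 and 50 UMIs in the ADAMTS18 subcluster, a log2 ratio of 2.41 (1.41 to 3.55), and JUN 10 and 67 UMIs, a ratio of 2.83 (1.86 to 3.95). In the ADIRF subcluster the ratios were 1.23 (0.07 to 2.56) and 0.16 (-0.84 to 1.21). In the NLGN1 subcluster FOS had 3 and 2 UMIs and JUN 1 and 5. The immediate early list as a whole did not share this direction: 2 of 15 genes were at least 2-fold higher in members and 3 lower (8.99% and 6.3% of all genes), with a median of 0.09. NR4A1 (-1.66), NR4A3 (-1.37) and ATF3 (-1.18) were the lower ones in all members. NR4A3 had 41 unperfused UMIs in the ADIRF subcluster, 22 of them in 1 nucleus, and a ratio of -0.02 (-1.23 to 1.18) in the ADAMTS18 subcluster. ATF3 was at 0.39 (-0.35 to 1.13) in the ADAMTS18 and -1.23 (-2.37 to -0.13) in the ADIRF subcluster. It had 24 and 1 UMIs in the distal nephron-like subcluster. In smooth muscle-like nuclei 5 of 8 were at least 2-fold higher and 2 lower, with a median of 1.51, where 14.4% of 2215 genes were higher and 9.89% lower. In the same nuclei the mitochondrial share was 0.271% and 1.75% and the ribosomal share 1.13% and 2.74%. Fibroblast markers summed there to 694 and 1578 CPM, immune markers to 123 and 335, and Schwann and neural markers to 526 and 281. Their part in the immediate early genes was not tested. In the 4 subclusters together 1 of 11 list genes was higher and 2 lower (8.72% and 6.21% of all genes), with a median of 0.63. The summed list had a log2 ratio of -0.12 (-0.33 to 0.09) in those 4. In the NLGN1 subcluster 1 gene of the list had enough UMIs to be compared. The summed list had a log2 ratio of 0.54 (-0.19 to 1.35) there and 0.39 (0.16 to 0.62) in smooth muscle-like nuclei, and the difference was not tested. NR4A1 and NR4A3 encode nuclear receptors, and ATF3 a factor of the stress response.

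Heat shock genes diverged as well. HSP70.2, the stress-inducible HSP70 chaperone in the deposited annotation, had 551 UMIs in 86 of 97 unperfused members (1737 CPM) and 276 UMIs in 89 of 136 perfused members (471 CPM), a log2 ratio of -1.88 (-2.10 to -1.67). Copies of this gene are nearly identical, so the split of its UMIs between loci is uncertain. The ratio was below 0 in each of the 6 subclusters, from -0.68 (-1.28 to -0.04) in the fibroblast-like to -3.17 (-4.59 to -1.97) in the LRP1B subcluster. It was -1.30 (-1.76 to -0.84) in the NLGN1, -2.52 (-3.11 to -1.98) in the ADAMTS18 and -1.61 (-2.13 to -1.10) in the ADIRF subcluster. Fibroblast, endothelial and proximal tubule nuclei had -1.54, -0.97 and -1.76, so the lower level was shared by other cell types.

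DNAJB1, its co-chaperone, had 118 and 59 UMIs in members, a log2 ratio of -1.89 (-2.36 to -1.42), and CRYAB, a small heat shock protein, 127 and 94 (-1.32). In the NLGN1 subcluster DNAJB1 had 6 and 17 UMIs and a ratio of -0.06 (-1.47 to 1.57). That interval held 0 and did not reach the -1.89 of all members, and the difference was not tested. HSP90AB1 (15 and 97 UMIs, 1.81) and the mitochondrial chaperone HSPA9 (6 and 31, 1.48) were higher. HSPH1 had 78 and 203 UMIs (0.49), and 77 of the perfused UMIs lay in 1 nucleus of the NLGN1 subcluster. Over the list 2 of 13 genes were at least 2-fold higher and 2 lower (8.99% and 6.3% of all genes), with a median of 0.39. Of 9 list genes compared in the NLGN1 subcluster 4 were higher and none lower (11.9% and 5.92% of all genes), with a median of 0.77. The list summed to 1009 and 2098 CPM there, which includes the 77 UMIs of HSPH1 in 1 nucleus. HSP70.2 was not in that list. In the nuclei of the NLGN1 subcluster podocyte markers summed to 716 and 1659 CPM. There, 18 of 58 ribosomal protein and 8 of 10 mitochondrially encoded genes were at least 2-fold higher. Their part in the heat shock genes was not tested.

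**Figure D5:**
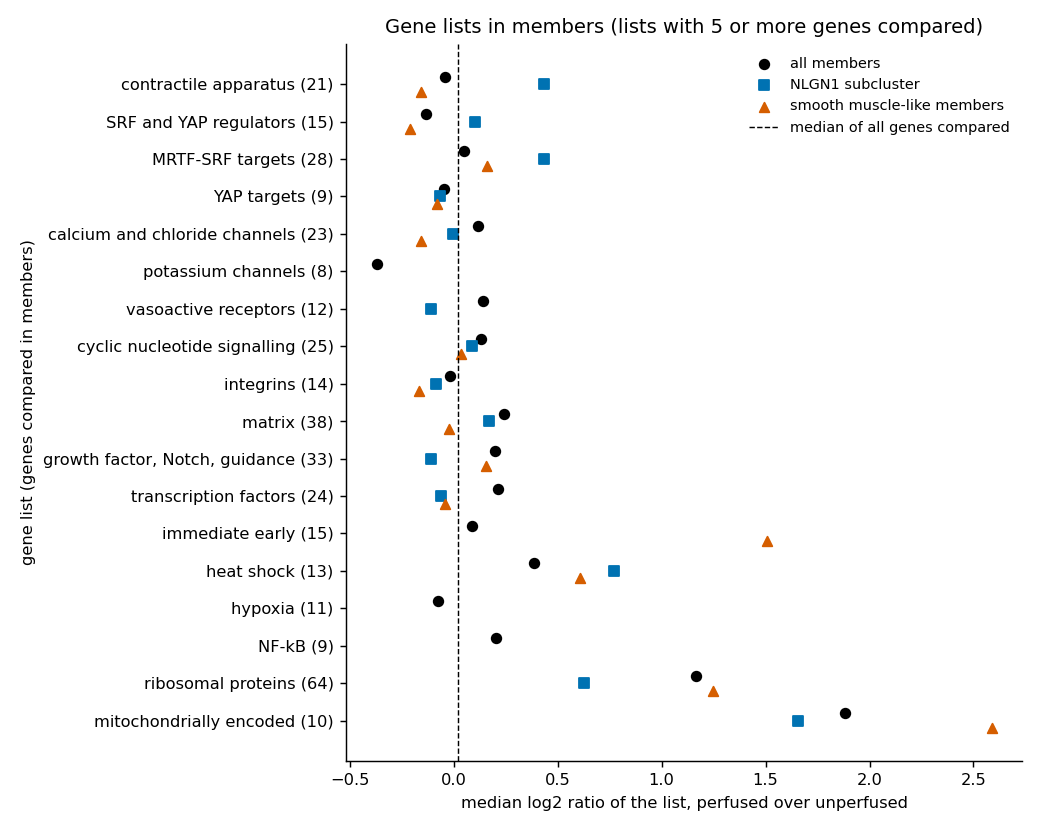
Median log2 ratio of perfused over unperfused (x axis) for each gene list (y axis, with the number of genes compared in members) in all members, the NLGN1 subcluster and smooth muscle-like members; lists with fewer than 5 genes compared have no point. The dashed line is the median of all 7449 genes (0.02); mitochondrially encoded genes lie at 1.88 in all members, and immediate early genes lie at 1.51 in smooth muscle-like members and 0.09 in all members.

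Matrix genes had a median log2 ratio of 0.24 over 38 genes, with 4 at least 2-fold higher and 3 lower (8.99% and 6.3% of all genes). SPARC (24 and 109 UMIs, 1.30), COL1A1 (18 and 81, 1.28), COL6A1 (1.09) and COL5A1 (1.04) were the higher ones, and LAMB2 (21 and 9 UMIs, -2.11), NPNT (-1.24) and COL25A1 (-1.15) the lower. NPNT encodes nephronectin, the ligand of the ITGA8 integrin, and in the 4 subclusters it had 5 and 17 UMIs, a ratio of 0.81 (-0.68 to 2.61). COL4A2, a chain of the collagen of basement membranes, had 207 and 291 UMIs and a ratio of -0.39, with -0.86 (-1.50 to -0.21) in the NLGN1, -1.46 (-2.19 to -0.77) in the ADAMTS18 and -1.05 (-1.88 to -0.23) in the ADIRF subcluster. It lay above 0, with intervals that held 0, in the LRP1B (6 and 23 UMIs), fibroblast-like (21 and 122) and distal nephron-like (44 and 41) subclusters. TNC, the matrix protein tenascin C, had 25 and 2 UMIs in smooth muscle-like nuclei. In members of the 4 subclusters 3 of 36 matrix genes were higher and 6 lower (8.72% and 6.21% of all genes), with a median of 0.03. Integrins had 1 of 14 higher (ITGA4, 7 and 65 UMIs, 2.33), none lower and a median of -0.02. ITGA4 is best known from leukocytes, and without the members that had an immune UMI its ratio was 0.62.

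Growth factor, Notch and guidance genes had 6 of 33 at least 2-fold higher and 5 lower, with a median log2 ratio of 0.20, where 8.99% of all genes were higher and 6.3% lower. In the 4 subclusters 3 of 30 were higher and 3 lower (8.72% and 6.21% of all genes), with a median of -0.03. IGFBP7, which binds insulin-like growth factors, had 438 and 1623 UMIs, with ratios of 0.99 in the 4 subclusters, 0.76 in the NLGN1 subcluster and 1.35 in smooth muscle-like nuclei. BMP4 (7 and 44 UMIs, 1.77) and SEMA5A (133 and 539, 1.13) were higher, and SLIT2 (118 and 77, -1.50), TGFB3 (72 and 54, -1.30) and BMPR1A, a receptor of bone morphogenetic proteins (164 and 147, -1.04), were lower. SEMA5A was at -0.24 (-0.93 to 0.46) and SLIT2 at -0.33 (-1.08 to 0.44) in the 4 subclusters. Transcription factors had 1 of 24 higher, 2 lower (PRDM16 at -1.47 and ZFPM2 at -1.03) and a median of 0.22. The higher one was TCF21, with 3 and 28 UMIs (2.34). EBF1 had 841 and 1857 UMIs (0.26). FOXD1, which marks the progenitors of renal stroma, TBX18 and FOXC1 had no UMI.

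Hypoxia genes had 1 of 11 at least 2-fold higher (ENO1, 15 and 66 UMIs, 1.25), none lower and a median log2 ratio of -0.08, and NF-kB genes 3 of 9 higher (NFKBIA at 1.24, CCL2 at 1.17 and ICAM1 at 1.16), 1 lower (NFKBIZ at -1.22) and a median of 0.20. Of all genes 8.99% were higher and 6.3% lower, and the summed NF-kB list stood at 602 and 601 CPM. NFKBIA had 8 and 35 UMIs and CCL2 had 6 and 25.

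Markers of other cell types moved with the comparison, in which 8.99% of all genes were at least 2-fold higher and 6.3% lower. Fibroblast markers, of which 9 of 11 in the files could be compared, summed to 1056 CPM in unperfused members and 1787 CPM in perfused ones, with 3 of 9 at least 2-fold higher, a median log2 ratio of 0.70 and most UMIs in FBLN5. Immune markers summed to 246 and 538 CPM, with most UMIs in PTPRC (43 and 149) and MS4A1 at 0, and 34 of 97 unperfused and 64 of 136 perfused members had at least 1 immune UMI. Podocyte markers summed to 265 and 609 CPM, with 2 of 4 higher and most UMIs in CLIC5. Markers of the distal nephron and collecting duct summed to 388 and 130 CPM, with 3 of 5 lower, 1 higher, most UMIs in SCNN1G and SLC4A1 at 0. Endothelial markers summed to 643 and 816 CPM, with 9 compared, none past 2-fold and most UMIs in EMCN. Their part in the results was not tested.

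Some of the largest ratios lay where those markers were. Of the UMIs of CNTN4, a contactin, 95 of 114 in the perfused library were in the fibroblast-like subcluster. Of the UMIs of CCDC148, 107 of 118 in the unperfused and 40 of 57 in the perfused library were in the distal nephron-like subcluster. KCNMA1, HSP70.2, FOSB and the mitochondrial genes kept their direction in the 4 other subclusters together, with log2 ratios of -5.39, -2.11 and 3.63 and a list median of 1.83. Among the remaining marker lists, proximal tubule markers summed to 779 and 819 CPM, thick limb markers to 716 and 686, pericyte markers to 608 and 601, parietal epithelium markers to 306 and 299, and Schwann and neural markers to 350 and 191, with CDH19 among those at 0. Markers of cycling cells summed to 56.7 and 34.1 CPM, and none had enough UMIs to be compared.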

How the data were processed

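The authors isolated nuclei from frozen renal cortex, made 1 library per condition with a 10x single 3′ kit, and counted reads on exons and introns against the pig Ensembl annotation with Cell Ranger. The deposited files hold UMI counts per gene and barcode, before any correction for free RNA or doublets. Of 31908 genes, 16554 had a deposited symbol and 822 more were filled from Ensembl names.

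Members were selected by the stated rule, and the selection, the marker lists and the gene lists were chosen with earlier results of these data known. Members were clustered with numpy 2.4.6 and leidenalg 0.10.2 on 1000 variable genes centred within library, with 10 principal components, 15 neighbours and a resolution of 0.6. A subcluster was named from at least 3 raised markers, and this rule was completed after a first run. Counts were summed per library and group. Ratios of scaled counts (CPM) carry exact conditional binomial 95% intervals and levels exact Poisson ones, from scipy 1.17.1, and cover counting error only. A 0 was set to 3 counts for bounds, and 2-fold was used as the size called. Genes named were those of the rule, the most abundant and most different members of each list, 15 leading genes, the 12 largest ratios in each direction resting on 50 or more UMIs in 1 of the libraries, and 5 leading genes of each subcluster. COL4A3 and PTPRO values within the NLGN1 subcluster were singled out after their values were seen. The ratio step was tested on simulated data. Alternatives included TMM (edgeR 4.0.16) and DESeq2 1.42.0 scaling, thinning, free RNA subtraction and leaving nuclei out. Per the labels, neither replicates nor animals were numbered. Promoter sequences were not analysed here, and some genes that met these rules are not reported here.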

Additional observations from a re-analysis of the deposited data

Results flagged for a closer look

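The following genes had log2 ratios of perfused over unperfused on opposite sides of 0 in members and in other nuclei of the same libraries. With 1 library per condition the difference between cell types was not tested. MYH11 had -1.01 in members against 1.02 (0.40 to 1.68) in fibroblast nuclei and 0.97 (0.48 to 1.49) in endothelial nuclei. ANO3 had 0.69 in members against -0.36 (-0.70 to -0.02) in endothelial nuclei. GPC6 had -0.43 in members against 0.81 (0.53 to 1.09) in endothelial nuclei. MYH11, ANO3 and GPC6 belong to the selection rule, which moves nuclei with more of their UMIs into the members, so the level left in other nuclei is limited by it. CCDC148 had -1.93 in members against 0.21 in fibroblast nuclei, and most of its member UMIs lay in the distal nephron-like subcluster.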

How the results depend on the processing

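Of 800 values recomputed under alternatives, 720 stayed within the spread set for them, 79 moved further, and 1 whose interval excluded 0 took the other sign. Values near 0 crossed it as well, among them POSTN (-0.55 to 0.49), KCNB2 (-0.29 to 0.58), ACTA2 (-0.29 to 0.50) and the medians of contractile genes (-0.23 to 0.10) and YAP targets (-0.19 to 0.35). The median of potassium channel genes ranged from -0.80 to 0.01. No paired analysis was possible because the labels give no replicate numbers and each condition had 1 library. Members made up 1.88% of perfused nuclei when at least 3 UMIs of MYH11, ANO3 and ANO1 were asked for, 2.96% without the second condition, and 1.42% (unperfused 0.835%) when nuclei were thinned to 1000 UMIs before the rule. Genes at least 2-fold higher and lower numbered 228 and 157 with members thinned, 271 and 160 at a minimum of 50 UMIs, and 1703 and 1518 at a minimum of 5, since fewer or more genes were then compared. With the 98 members that had an immune UMI left out, 370 genes were higher, and the median log2 ratio of cyclic nucleotide genes was 0.36. The median of ribosomal protein genes was 0.77 with members thinned, 0.69 without immune UMIs, 0.84 with equal weights for the 5 subclusters of at least 10 nuclei in each library (the distal nephron-like one left out), and 0.76 without the fibroblast-like and distal nephron-like subclusters, an alternative chosen after seeing the data. The median of immediate early genes was -0.93 with members thinned, which left 5 genes, and 0.63 without the same 2 subclusters, and the cause was not tested. At a clustering resolution of 0.3, smooth muscle-like subclusters held 41 nuclei. ITGA8 reversed to -0.11 with these equal weights, which also gave the -0.28 of MYH11 below. KCNMA1 ranged from -5.83 to -4.68, and MYH11 from -1.03 to -0.28. TMM and DESeq2 scaling moved all ratios by -0.01 and -0.02. The planned search of promoters was not run. Depth limits the subclusters, where many genes had fewer than 20 UMIs.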
